A study of Mus musculus with 9 samples.

Results

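The genes described here serve the cell cycle and DNA replication, and their RNA was measured in the heart. The set was defined by a list of 58 gene symbols, of which 47 are rows of the deposited count table of 13890 genes. The other 11 (Ccnb2, Bub1, Aurkb, Ttk, Cdca8, Melk, Nuf2, Hmmr, Spc25, Esco2 and Pbk) were not analysed here. Of the 47 genes, 37 passed a filter on low counts and were tested, and 10 are described by their counts.

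The hearts came from 9 male NSG mice, an immunodeficient strain that accepts human cells, injected into the spleen at 8 weeks of age and euthanized about 3 weeks later. Sham mice received saline (S; animals 2, 3 and 5). The second group carries the label of mice injected with HCT116 cells, which derive from a human colorectal carcinoma and model spread to the liver (T; animals 11, 12 and 15). The last group is labelled as HCT116 hosts given weekly ACVR2B/Fc (A + T; animals 20, 21 and 22), a soluble decoy of the activin receptor ACVR2B that binds activins, myostatin and related ligands. No group labelled as tumour-free mice given the drug was analysed here. The model rests on a single human cell line and on hosts without lymphocytes, and 0 of 7 lymphocyte markers are among the genes of the table.

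The labels of one group need care. Over the genes that the study lists as changed in heart, the differences of the T libraries from S computed here followed the list for sham mice given ACVR2B/Fc and not that for untreated tumour hosts. Over 429 genes, the Pearson correlation was 0.958 with the former list and 0.358 with the latter. The group is therefore called T or labelled T after its label only, and a direction given for it belongs to those libraries. For the same reason, the treatments compared in A + T vs. T are not settled. A + T vs. S compares no values of the T libraries, but these entered the shared filter, scaling and estimate of the spread. The label of A + T was not checked in this way.

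Proliferating cells copy their DNA in S phase and divide in M phase. Replication is licensed when the MCM helicase is loaded on origins, and it draws on enzymes that make deoxynucleotides. Cyclins with their kinases, the anaphase-promoting complex, kinetochore proteins and kinesins then carry the chromosomes through mitosis, and a contractile ring separates the daughter cells. Cardiomyocytes of the adult mouse have largely left the cell cycle, while endothelial cells, fibroblasts and macrophages of the heart can still divide. Many mitotic genes carry a cell cycle genes homology region (CHR) and CCAAT boxes just upstream of their start sites and are held down by the DREAM complex outside the cycle, and many replication genes carry E2F sites.

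The promoters of the 4 genes below are shown because Top2a, Kif23, Ect2 and Mki67 are the mitotic genes that passed an adjusted test in the comparisons described further on. Each run is the 250 bases before the RefSeq start site in GRCm38.p6, read 5′ to 3′ along the gene, with CHR words (TTTGAA or TTCGAA) and CCAAT boxes in capitals on either strand, so that ATTGG and TTCAAA are the reverse forms. All 4 genes lie on the minus strand, at chr11:99024190-99024439 (Top2a), chr7:135716380-135716629 (Mki67), chr3:27153879-27154128 (Ect2) and chr9:61946800-61947049 (Kif23). None of the marked words overlaps another in these windows.
Top2a: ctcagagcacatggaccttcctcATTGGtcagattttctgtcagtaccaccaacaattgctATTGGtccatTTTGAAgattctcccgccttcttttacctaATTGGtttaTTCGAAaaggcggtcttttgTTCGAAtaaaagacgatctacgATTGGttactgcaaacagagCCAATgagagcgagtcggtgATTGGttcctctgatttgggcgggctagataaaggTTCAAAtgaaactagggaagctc
Mki67: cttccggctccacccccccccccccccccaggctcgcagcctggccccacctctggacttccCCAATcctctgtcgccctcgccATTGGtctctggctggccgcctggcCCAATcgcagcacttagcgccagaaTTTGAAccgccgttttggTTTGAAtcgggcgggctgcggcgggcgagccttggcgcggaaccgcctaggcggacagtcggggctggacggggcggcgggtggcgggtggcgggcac
Ect2: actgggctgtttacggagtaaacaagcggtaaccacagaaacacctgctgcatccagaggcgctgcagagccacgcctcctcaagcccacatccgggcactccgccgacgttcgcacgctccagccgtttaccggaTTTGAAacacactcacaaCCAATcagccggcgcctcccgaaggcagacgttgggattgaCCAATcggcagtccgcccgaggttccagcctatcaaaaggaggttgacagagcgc
Kif23: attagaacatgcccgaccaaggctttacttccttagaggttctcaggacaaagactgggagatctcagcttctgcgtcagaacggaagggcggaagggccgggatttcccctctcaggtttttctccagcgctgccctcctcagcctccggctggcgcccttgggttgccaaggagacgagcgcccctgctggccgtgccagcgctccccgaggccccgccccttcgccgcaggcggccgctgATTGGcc

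The Top2a window held 4 CHR words and 6 CCAAT boxes, the Mki67 window 2 and 3, the Ect2 window 1 and 2, and the Kif23 window 0 and 1. For Ect2, RefSeq gives a further start site whose window holds 1 CHR word and 3 CCAAT boxes. Promoter entries were found for 47 of the 58 genes, 51 entries in all. Mcm4 is among the 11 without one. A CCAAT box was present in 39 of the 51 windows (76.5%), vs. 33.9% of all 32851 promoters of the table. A CHR word was present in 16 (31.4%, vs. 17.1%). Any of 4 E2F words (TTTCGCGC, TTTGGCGC, TTTCCCGC and TTTGGCGG, each searched on both strands) was present in 6 (11.8%, vs. 1.96%). A match is only a match of letters, and binding was not measured.

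Depth was limited for these genes. Total counts ranged from 12392222 to 19732471 per library. By these totals, 3 counts, the least read here as a level, stood for 0.152 to 0.242 CPM (counts scaled to a common library size). Of the 47 genes, 20 had at least 10 counts in every library and 4 had a library with 0. A kinetochore protein, Cenpf, with between 1585 and 2844 counts, held between 44.3% and 61.9% of all counts on the 47 genes, so sums over the set are given first without it. CPM below are scaled with TMM, which corrects for library composition. On that scale, 3 counts in animal 15 of T were 0.281 CPM. Cardiomyocyte markers were abundant in every library (summed between 58886 and 90757 CPM). In bulk tissue, fewer cells of a type and less RNA per cell cannot be told apart.

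Levels of different genes are compared on the deposited log2 scale, which is normalised for depth and gene length. Pcna, the sliding clamp of the DNA polymerases, had the highest mean over the 9 hearts (3.73), followed by Cenpf (3.60) and Rrm1, the large subunit of ribonucleotide reductase (2.33). The MCM subunits Mcm7, Mcm4, Mcm6 and Mcm3 came next, with means between 1.17 and 1.82. The genes called in the tests below other than Mcm4 had lower means. Mki67, the source of the Ki-67 proliferation marker, had a mean of -1.09, Top2a of -1.89, Kif23 of -2.01 and Ect2 of -2.60. The lowest was Cenpe, a kinetochore motor, at -3.44.

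**Figure D1:**
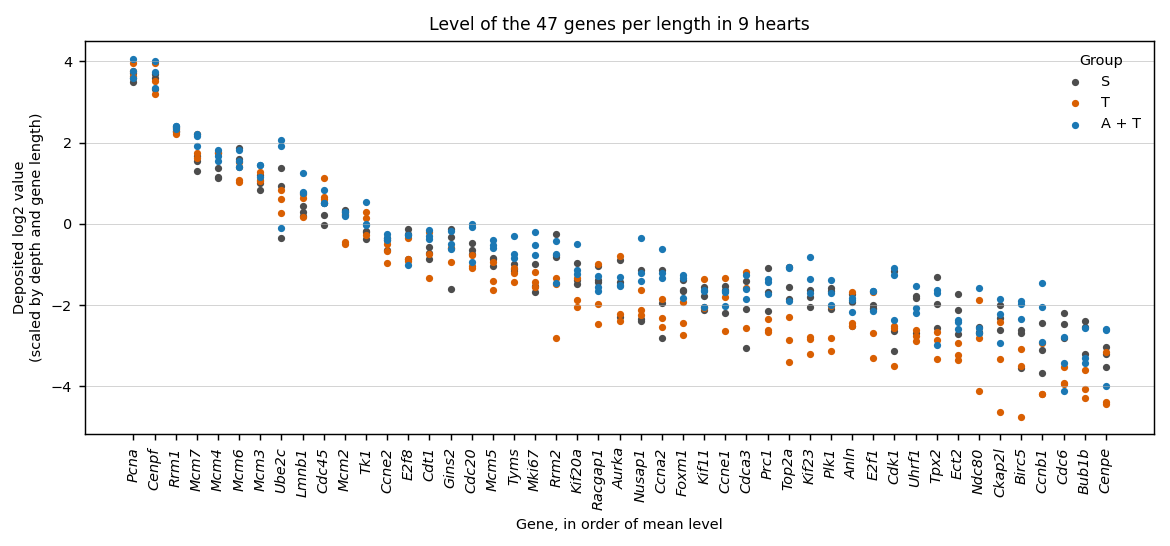
Deposited log2 values (scaled by depth and gene length) of the 47 genes, in order of their mean, with 1 point per heart coloured by group. Pcna, Cenpf and Rrm1 lead, and among the genes at the low end the T points are often lowest.

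Across the set, the hearts labelled T were mixed and the A + T hearts mostly higher. In T vs. S, 27 of the 37 genes tested had a log2 fold change below 0, with a median of -0.30, beside -0.0038 over all 13364 genes tested. Between A + T and T, 34 were above 0, with a median of 0.46, beside 0.0098. Between A + T and S, 30 were above 0, with a median of 0.23, beside 0.0034. Fitted without the filter, 35 of the 47 genes were below 0 in T vs. S, 44 above 0 in A + T vs. T and 38 above 0 in A + T vs. S. The first and second of these comparisons share the T libraries with opposite sign, so that the same T values enter both. The last compares no T values, although the T libraries entered the shared filter, scaling and estimate of the spread. Leaving out animal 12 of T or animal 22 of A + T, the libraries with RNA of airway and lung genes (sums of 104 and 1451 CPM, vs. at most 2.74 CPM in the others), left 33 and 34 of the 37 genes above 0 in A + T vs. T. Without animal 22, 32 were above 0 in A + T vs. S.

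Summed over the 46 genes other than Cenpf, the level was 114 ± 7.39 CPM in S (SD, n = 3), 110 ± 8.56 in T and 139 ± 6.81 in A + T. The sums ran from 106 to 121 CPM in S, from 102 to 119 in T and from 131 to 143 in A + T. Every A + T heart was above every other heart, and S and T overlapped. With Cenpf included, the sums ran from 217 to 259 CPM in S, from 222 to 283 in T and from 257 to 312 in A + T. On that sum A + T overlapped both other groups. No test was run on either sum.

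**Figure D2:**
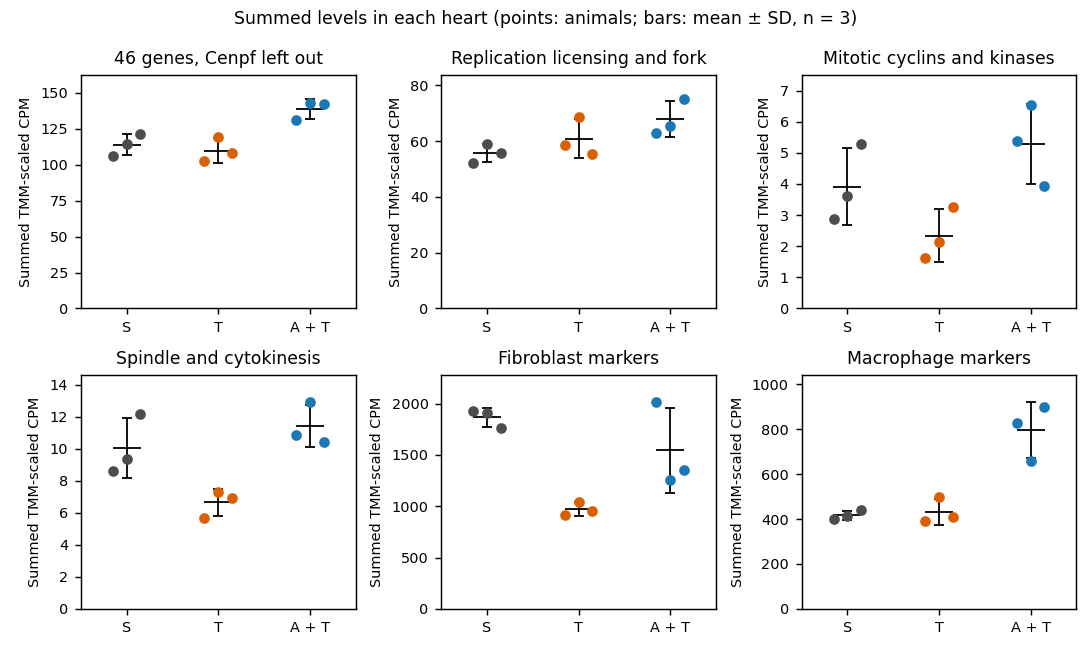
Summed TMM-scaled CPM in each heart (points; bars give the mean ± SD, n = 3) for 46 of the genes, for 3 of their role groups, and for markers of fibroblasts and macrophages. The gene sum is highest in the 3 A + T hearts, spindle and cytokinesis genes are lowest in T, fibroblast markers are low in T, and macrophage markers are high in A + T.

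Few single genes passed the test. The test was edgeR's quasi-likelihood test with all 9 libraries in the same fit and Benjamini-Hochberg adjustment over all genes tested, and a gene is called at an adjusted P-value under 0.05. In T vs. S, 3 genes fell, namely Top2a, Kif23 and Ect2 (8.11% of 37, vs. 11% of all genes tested), and 1 rose, namely Mcm4 (2.7%, vs. 10.3%). These shares were below those of all genes. From T to A + T, 3 genes rose, Mki67, Top2a and Kif23 (8.11%, vs. 3.09%), and 0 fell (vs. 2.79%). Relative to S, Mcm4 and Mki67 rose in A + T (5.41%, vs. 4.67%), and 0 fell (vs. 3.64%). At an unadjusted P-value under 0.05 edgeR also gave 0 genes lower in A + T than in T or S, as did DESeq2 at an adjusted P-value under 0.05. DESeq2 called 1 gene lower and 1 higher in T vs. S, Top2a and Mcm4. With only the groups compared in the fit, 0 genes were called between A + T and either other group.

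At the thresholds of the study, an unadjusted P-value under 0.05 with a fold change of at least 1.5, more genes passed. In T vs. S these were Rrm2, Foxm1, Top2a, Kif23, Prc1, Tpx2 and Ect2, which were lower (7 of 37, or 18.9%, vs. 9.01% of all genes), and Cdc45, which was higher (2.7%, vs. 5.2%). Between A + T and T, 12 genes were higher (32.4%, vs. 6.50%), namely Mcm5, Rrm2, Tyms, Uhrf1, Ccna2, Foxm1, Mki67, Top2a, Kif20a, Kif23, Prc1 and Nusap1, and 0 were lower (vs. 1.61%). Relative to S, Mcm7, Mki67, Nusap1 and Lmnb1 were higher in A + T (10.8%, vs. 5.82%) and 0 were lower (vs. 3.09%). Counted by whether the 3 hearts of one group all lay beyond the 3 of the other, over the 47 genes listed, 19 genes were higher in A + T than in T (40.4%, vs. 12.3% of all genes listed) and 0 lower (vs. 12.8%). Among the 19, Ccnb1, Plk1 and Bub1b had equal counts in the nearest hearts, so that only the scaling separated them. For Lmnb1 the raw counts of the nearest hearts ran the other way, with 66 in animal 21 of A + T and 78 in animal 12 of T. In T vs. S, 10 were lower (21.3%, and 21.3% of all genes) and 2 higher (4.26%, vs. 20.6%). Relative to S, 9 were higher in A + T (19.1%, vs. 15.8%) and 0 lower (vs. 16.2%).

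**Figure D3:**
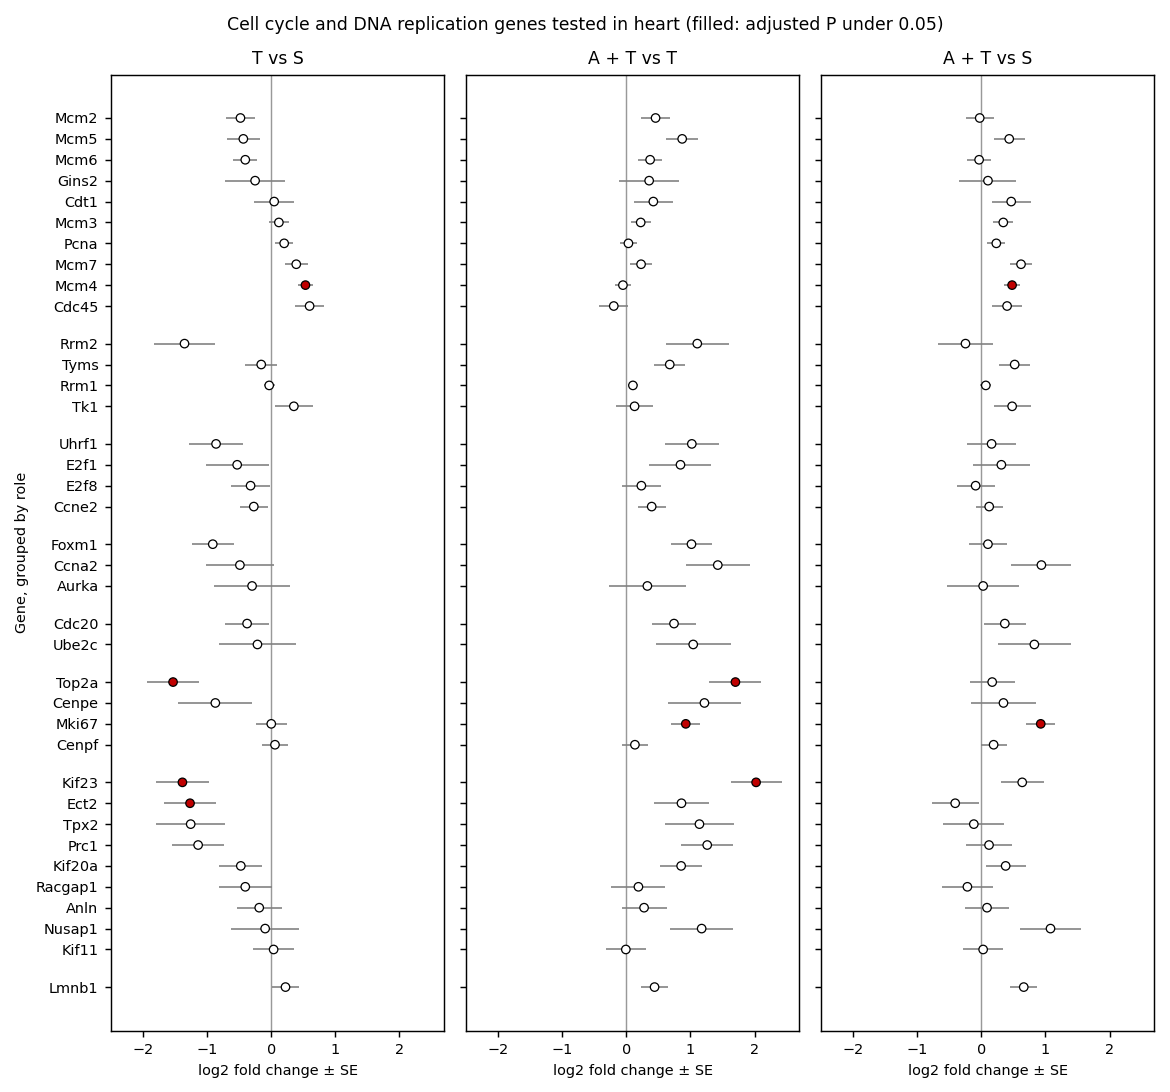
Log2 fold change ± SE of the 37 genes tested, grouped by role from replication (top) to the nuclear lamina (bottom), in 3 panels, 1 for each comparison, with genes at an adjusted P-value under 0.05 filled. Top2a, Kif23 and Ect2 are filled on the left of 0 in T vs. S and Mcm4 on the right, while the filled genes of the other panels (Mki67, Top2a and Kif23, then Mcm4 and Mki67) lie right of 0.

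The replication licensing and fork genes (11 listed, 10 tested) lay on both sides of 0 in T vs. S, with 4 below and 6 above and a median of 0.08. Mcm4, a subunit of the MCM helicase, was at 9.29, 7.71 and 7.88 CPM in S, at 12, 12 and 12.1 in T, and at 11.4, 10.5 and 12.7 in A + T. S lay below both other groups without overlap. Mcm4 rose in T vs. S by 0.53 ± 0.12 on the log2 scale (SE; adjusted P-value 0.0117 from edgeR) and in A + T vs. S by 0.48 ± 0.12 (edgeR adjusted P-value 0.0389), and A + T vs. T differed by -0.05 ± 0.12 (0.833). The T vs. S call was kept in 8 of 9 fits that each left out an animal and was lost without animal 3 of S (adjusted P-value 0.0512), whereas the A + T vs. S call was kept in 3 of 9 and lost without animal 2, 3, 5, 11, 20 or 22 (adjusted P-value up to 0.133).

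Other MCM subunits went different ways in T. Mcm2 was at 4.09, 3.80 and 4.19 CPM in S, at 2.29, 3.92 and 2.34 in T, and at 3.77, 4.02 and 4.06 in A + T, so that T overlapped S through animal 12 (-0.48 ± 0.22 in T vs. S, edgeR adjusted P-value 0.147). Mcm5 did not pass the adjusted test in A + T vs. T (0.87 ± 0.25, adjusted P-value 0.0700 from edgeR), although all 3 A + T hearts (2.16 to 2.51 CPM) were above all others (0.991 to 1.81 CPM). Mcm7 was at 5.80, 6.90 and 7.52 CPM in S and at 10.8, 9.04 and 11.1 in A + T (0.62 ± 0.18, edgeR adjusted P-value 0.0587). Cdc45, which joins MCM to form the active helicase, was at 1.99, 2.38 and 2.96 CPM in S, at 4.58, 3.15 and 3.27 in T and at 2.97, 3.73 and 2.96 in A + T. Its T hearts were all above S (0.60 ± 0.23, edgeR adjusted P-value 0.0931). Pcna ran from 14 to 16.5 CPM in S, from 15.5 to 19.8 in T and from 15.3 to 21.2 in A + T, and all 3 groups overlapped (0.20 ± 0.14 in T vs. S, edgeR adjusted P-value 0.336). Of the other genes of this role, Mcm6 (5.80 to 10.5 CPM) and Mcm3 (5.08 to 7.82 CPM) overlapped in every comparison, as did Gins2, a subunit of the GINS complex of the helicase, at 3 to 15 counts. Cdt1, a licensing factor, was between 1.58 and 1.85 CPM in A + T and between 1.08 and 1.37 in S (0.46 ± 0.30, edgeR adjusted P-value 0.363). Cdc6, a loader of MCM removed by the filter, had 10, 18 and 10 counts in S, 3 in each heart of T, and 5, 2 and 9 in A + T, so every T heart was below S.

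**Figure D4:**
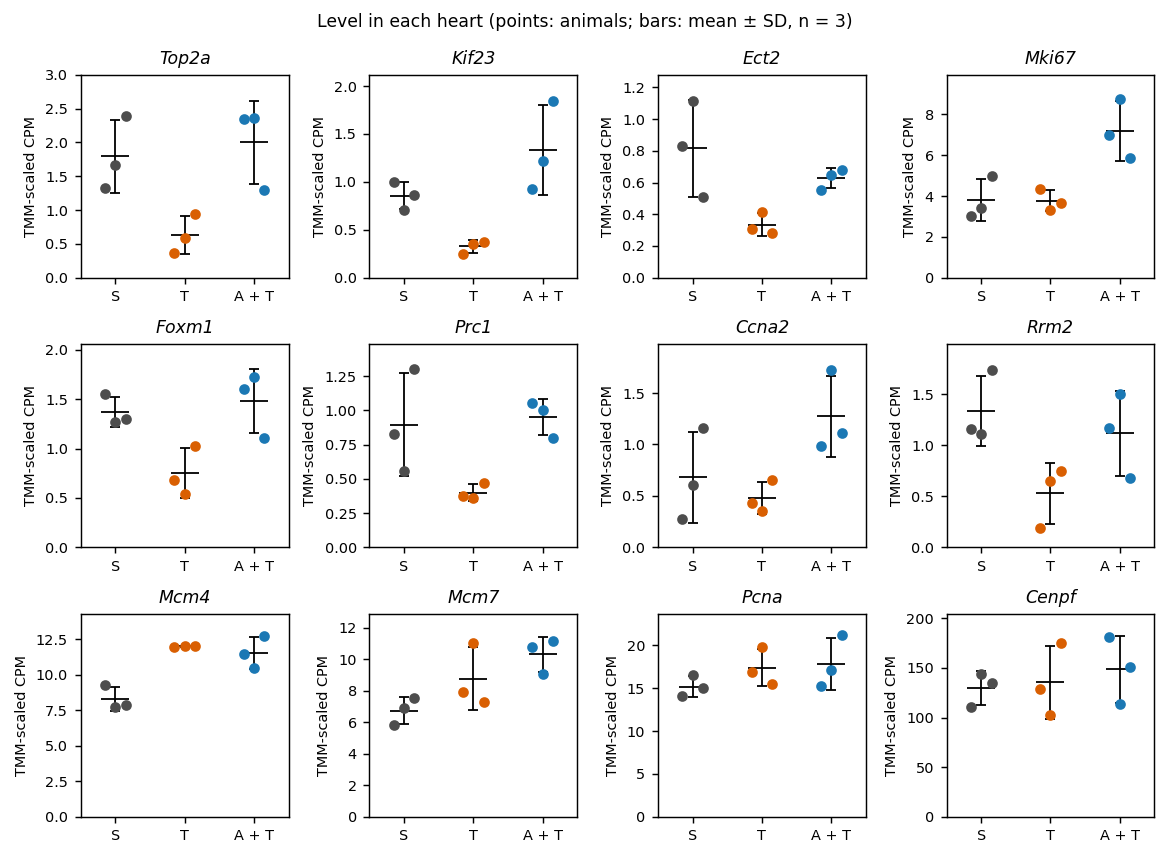
TMM-scaled CPM of 12 genes in each heart (points; bars give the mean ± SD, n = 3), each axis starting at 0. Top2a, Kif23, Ect2, Foxm1 and Prc1 are lowest in the 3 T hearts, Mki67 is highest in the 3 A + T hearts, Mcm4 is lowest in S, and Pcna and Cenpf overlap between the groups.

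Among the genes of nucleotide supply (4 listed and tested), 0 passed the adjusted test of edgeR or DESeq2 in any comparison, and at an unadjusted P-value under 0.05 edgeR gave 1 lower in T vs. S (Rrm2) and 2 higher in A + T vs. T (Rrm2 and Tyms). Rrm2, the small subunit of ribonucleotide reductase and the one tied to S phase, was at 1.16, 1.12 and 1.74 CPM in S, at 0.186, 0.654 and 0.748 in T, and at 1.17, 1.51 and 0.677 in A + T. All T hearts were below S (-1.36 ± 0.48, edgeR adjusted P-value 0.0687), and animal 22 of A + T lay among the T values (1.11 ± 0.49 in A + T vs. T, 0.215). Rrm1, its partner, was at 19.9 ± 0.949 CPM in S (SD, n = 3), 19.5 ± 1.14 in T and 20.9 ± 0.485 in A + T, and it differed by -0.03 ± 0.08 between T and S on the log2 scale (edgeR adjusted P-value 0.809). Tyms, which makes thymidylate, was between 2.01 and 3.02 CPM in A + T and between 1.30 and 1.81 CPM in all other hearts (0.68 ± 0.24 in A + T vs. T, edgeR adjusted P-value 0.132). Tk1, thymidine kinase, ran from 0.940 to 1.08 CPM in S and from 1.23 to 1.87 in A + T without overlap (0.48 ± 0.29, edgeR adjusted P-value 0.324), and from 1.01 to 1.55 in T.

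The G1/S regulators (5 listed, 4 tested) gave 0 calls in each comparison with edgeR or DESeq2, and 1 gene (Uhrf1, higher in A + T vs. T) at an unadjusted P-value under 0.05. Uhrf1, which carries DNA methylation over to new strands, was at 0.442, 0.913 and 0.940 CPM in S, at 0.372, 0.416 and 0.468 in T, and at 0.742, 1.15 and 0.677 in A + T. A + T did not overlap T (1.02 ± 0.42, edgeR adjusted P-value 0.187), and S overlapped T through animal 2. Ccne2, an E-type cyclin, was between 1.95 and 2.44 CPM in S, between 1.54 and 2.15 in T and between 2.34 and 2.58 in A + T (-0.27 ± 0.22 in T vs. S, edgeR adjusted P-value 0.402). E2f1, an activating E2F factor, was near the limit of reading with 3, 6 and 9 counts in T and 8 to 14 in the other hearts (-0.53 ± 0.49 in T vs. S, edgeR adjusted P-value 0.473). The repressor E2f8 overlapped between all groups. Ccne1, removed by the filter, had 2 to 11 counts and overlapped in every comparison.

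Of the mitotic cyclins and kinases, 6 of 10 are listed and 3 were tested, with 0 calls by edgeR or DESeq2. At an unadjusted P-value under 0.05, edgeR gave 1 lower in T vs. S (Foxm1) and 2 higher in A + T vs. T (Ccna2 and Foxm1). Foxm1, the transcription factor that drives many G2/M genes, was at 1.55, 1.27 and 1.30 CPM in S, at 0.681, 0.535 and 1.03 in T, and at 1.61, 1.72 and 1.11 in A + T. T lay below both other groups without overlap, at -0.91 ± 0.33 vs. S (edgeR adjusted P-value 0.0706), and A + T was 1.02 ± 0.33 above T (0.0966). Ccna2, cyclin A2, was at 0.276, 0.609 and 1.16 CPM in S, at 0.434, 0.357 and 0.655 in T and at 0.989, 1.72 and 1.11 in A + T. A + T was above T without overlap (1.43 ± 0.50, edgeR adjusted P-value 0.125), whereas S spread over both. Aurka, a centrosome kinase, overlapped in every comparison (-0.30 ± 0.60 in T vs. S, edgeR adjusted P-value 0.755).

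The filtered genes of the same group were Cdk1, Ccnb1 and Plk1, the core of the mitotic entry switch. Cdk1 had 6, 4 and 16 counts in S, 2, 6 and 4 in T, and 20, 15 and 7 in A + T. Ccnb1 had 1, 6 and 2 counts in S, 0, 3 and 0 in T, and 7, 10 and 3 in A + T. Plk1 had 7, 12 and 8 counts in S, 2, 7 and 2 in T, and 9, 10 and 7 in A + T. For each of the 3 genes the scaled CPM of A + T was above T without overlap, at counts too low for a test after the filter. Fitted without the filter, none of them passed in A + T vs. T (edgeR adjusted P-value 0.205 for Cdk1, 0.173 for Ccnb1 and 0.232 for Plk1). For Ccnb1 and Plk1 only the scaling separated animal 22 of A + T from animal 12 of T, whose counts were equal. The values were 0.185 and 0.178 CPM for Ccnb1 and 0.431 and 0.416 CPM for Plk1.

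Of the spindle checkpoint and anaphase-promoting complex genes, 3 of 5 are listed and 2 were tested, with 0 passing an unadjusted P-value under 0.05 in edgeR or an adjusted one in DESeq2. Cdc20, the activator of that complex, was at 1.16, 1.01 and 0.940 CPM in S, at 0.929, 0.713 and 0.748 in T and at 0.804, 1.58 and 1.66 in A + T (-0.38 ± 0.35 in T vs. S, edgeR adjusted P-value 0.468). T was just below S without overlap, and animal 20 of A + T lay among T. Ube2c, its ubiquitin-conjugating enzyme, was at 3.80 and 3.45 CPM in animals 21 and 22 of A + T but at 0.742 in animal 20, and the other hearts ran from 0.609 to 2.31 (1.04 ± 0.58 in A + T vs. T, edgeR adjusted P-value 0.319). Bub1b, a checkpoint kinase removed by the filter, had 5, 10 and 8 counts in S, 1, 3 and 1 in T, and 8, 3 and 4 in A + T.

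Among the genes of chromosomes and kinetochores (7 of 11 listed, 4 tested), Top2a and Mki67 carried the calls. Top2a, the topoisomerase that untangles sister chromatids, was at 1.33, 1.67 and 2.39 CPM in S, at 0.372, 0.594 and 0.935 in T, and at 2.35, 2.37 and 1.29 in A + T. The T hearts were below all others, and S and A + T overlapped. It fell in T vs. S (-1.53 ± 0.41, or 2.90-fold lower, edgeR adjusted P-value 0.0235), rose in A + T vs. T (1.70 ± 0.41, or 3.25-fold, 0.0388), and gave 0.17 ± 0.35 in A + T vs. S (0.805). The counts behind these values were 24, 33 and 33 in S, 6, 10 and 10 in T, and 38, 33 and 21 in A + T. The T vs. S call was lost without animal 3, 5, 11 or 12 (edgeR adjusted P-value up to 0.0916), with log2 fold changes between -1.85 and -1.25 over the 9 fits that each left out an animal. The A + T vs. T call was lost without animal 2, 3, 11, 12, 20 or 21 (up to 0.151), with log2 fold changes between 1.42 and 2.02.

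Mki67 behaved otherwise. It was at 3.04, 3.40 and 4.99 CPM in S, at 4.34, 3.33 and 3.65 in T, and at 6.98, 8.75 and 5.85 in A + T. S and T overlapped (0.00 ± 0.24, edgeR adjusted P-value 0.998), and every A + T heart was above both. Mki67 rose by 0.93 ± 0.23 in A + T vs. T (1.90-fold, edgeR adjusted P-value 0.0426) and by 0.93 ± 0.23 in A + T vs. S (1.90-fold, 0.0335). The former call was lost without any one of animals 2, 3, 11, 12, 15, 20 and 21 (edgeR adjusted P-value up to 0.118) and the latter without animal 2, 3, 20 or 21 (up to 0.124), with log2 fold changes of at least 0.77 in all of these fits. Mki67 had 39 to 122 counts per heart, so it is among the better measured mitotic genes.

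The other kinetochore genes gave no call. Cenpf was at 130 ± 17.2 CPM in S (SD, n = 3), 136 ± 36.6 in T and 148 ± 33.6 in A + T, and overlapped in every comparison (0.06 ± 0.20 in T vs. S, edgeR adjusted P-value 0.871). Cenpe was at 0.248, 0.238 and 0.748 CPM in T and between 0.370 and 1.17 in the other hearts (-0.87 ± 0.58 in T vs. S, edgeR adjusted P-value 0.309). Birc5, which encodes survivin of the chromosomal passenger complex and was removed by the filter, had 3, 8 and 6 counts in S, 0, 3 and 3 in T, and 12, 11 and 9 in A + T. Every A + T heart was above every other heart for Birc5, which did not pass in A + T vs. T when fitted without the filter (edgeR adjusted P-value 0.0969). Ndc80, a kinetochore subunit, had 0 to 10 counts and Cdca3 1 to 9, with overlap in every comparison.

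The spindle and cytokinesis genes (10 of 11 listed, 9 tested) had 8 of 9 genes below 0 in T vs. S, with a median of -0.48. Their summed level was 10 ± 1.86 CPM in S (SD, n = 3), 6.64 ± 0.84 in T and 11.4 ± 1.33 in A + T, with T below both other groups without overlap. Kif23, a kinesin of the centralspindlin complex that bundles midzone microtubules, was at 0.995, 0.710 and 0.868 CPM in S, at 0.248, 0.357 and 0.374 in T, and at 0.927, 1.22 and 1.85 in A + T. It fell in T vs. S (-1.39 ± 0.41, or 2.62-fold lower, edgeR adjusted P-value 0.0367) and rose in A + T vs. T (2.02 ± 0.40, or 4.07-fold, 0.0197), from 18, 14 and 12 counts in S, 4, 6 and 4 in T, and 15, 17 and 30 in A + T. Every T heart was under 0.5 CPM, the minimum of the filter, so Kif23 was tested only through its S and A + T hearts. The A + T vs. T call was kept in 7 of 9 fits that left out an animal and was lost without animal 11 or animal 12 of T (edgeR adjusted P-value up to 0.0923), and the T vs. S call was kept only without animal 20 or animal 22 of A + T (up to 0.123 in the others).

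Ect2, the exchange factor that switches on RhoA at the division plane, was at 0.829, 1.12 and 0.506 CPM in S, at 0.310, 0.416 and 0.281 in T, and at 0.556, 0.646 and 0.677 in A + T. Its counts were low, at 15, 22 and 7 in S, 5, 7 and 3 in T, and 9, 9 and 11 in A + T. Ect2 also passed the filter only through its S and A + T hearts, as every T heart was under 0.5 CPM. It fell in T vs. S (-1.27 ± 0.41, or 2.41-fold lower, edgeR adjusted P-value 0.0490) at the edge of the threshold, and with each animal left out in turn the call was kept only without animal 5 of S (adjusted P-value up to 0.177 in the others). In A + T vs. T its difference was 0.86 ± 0.43 (edgeR adjusted P-value 0.264). Racgap1, which joins Kif23 in centralspindlin, overlapped throughout (-0.41 ± 0.41 in T vs. S, edgeR adjusted P-value 0.517), with animal 12 of T (1.43 CPM) above all S hearts.

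Prc1, which crosslinks midzone microtubules, was at 0.829, 0.558 and 1.30 CPM in S, at 0.372, 0.357 and 0.468 in T, and at 1.05, 1.0 and 0.801 in A + T. T was below both other groups without overlap (-1.14 ± 0.41 vs. S, edgeR adjusted P-value 0.0724, and 1.26 ± 0.41 in A + T vs. T, 0.0986). Tpx2, a spindle assembly factor, was also below S in all T hearts, at 0.310, 0.475 and 0.561 CPM, while animal 22 of A + T, at 0.431, lay among them. Nusap1, another microtubule binder, was between 0.989 and 2.22 CPM in A + T and between 0.495 and 0.832 in T (1.17 ± 0.49, edgeR adjusted P-value 0.186). Kif20a, a kinesin of the late spindle, was between 1.55 and 2.65 CPM in A + T and between 0.832 and 1.42 in T (0.85 ± 0.33, edgeR adjusted P-value 0.158). The kinesin Kif11 and the ring protein Anln overlapped in every comparison, with log2 fold changes between -0.19 and 0.28. Ckap2l, removed by the filter, had 7, 13 and 7 counts in S, 3, 0 and 5 in T, and 12, 4 and 9 in A + T.

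Lmnb1, lamin B1 of the nuclear envelope, was at 3.76, 3.15 and 3.40 CPM in S, at 3.10, 4.63 and 4.30 in T, and at 4.82, 4.74 and 6.71 in A + T. On this scale every A + T heart was above every other heart (0.66 ± 0.21 vs. S, edgeR adjusted P-value 0.0788), and S and T overlapped. In raw counts animal 21 of A + T had 66, fewer than animal 12 of T (78) and animal 2 of S (68).

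Of 143 further genes of the cell cycle, in lists of inhibitors, G1 cyclins, E2F and MuvB factors, fork proteins and mitotic genes, 99 were tested, and 7 fell (7.07%, vs. 11% of all genes) and 14 rose (14.1%, vs. 10.3%) in T vs. S, with a median of 0.0052. In A + T vs. T, 1 fell (1.01%, vs. 2.79%) and 4 rose (4.04%, vs. 3.09%), and in A + T vs. S, 3 fell (3.03%, vs. 3.64%) and 7 rose (7.07%, vs. 4.67%). Of the further mitotic genes alone, 26 were tested, and 0 fell and 2 rose in T vs. S (median -0.08). In A + T vs. T, 0 of these mitotic genes were called in either direction, with 17 above 0 and 9 below (median 0.28). Cdkn1a, the inhibitor p21, was at 46.8, 35.0 and 45.5 CPM in S, at 94.8, 77.9 and 113 in T, and at 39.8, 45.2 and 55.2 in A + T. It rose in T vs. S (1.17 ± 0.17, edgeR adjusted P-value 0.00118) and fell in A + T vs. T (-1.02 ± 0.16, 0.00894). Ccnd1, cyclin D1, was at 33.8 to 34.9 CPM in S, at 10.5 to 12.2 in T and at 19.3 to 22.7 in A + T, and it fell in T vs. S (-1.59 ± 0.09, edgeR adjusted P-value 1.94e-05), rose in A + T vs. T (0.86 ± 0.09, 0.00269) and fell in A + T vs. S (-0.73 ± 0.09, 0.00253). Rbl1, the pocket protein p107, fell in T vs. S (-1.44 ± 0.29, edgeR adjusted P-value 0.00678) and rose in A + T vs. T (1.42 ± 0.30, 0.0244), while Rbl2, the p130 of the DREAM complex, rose in T vs. S (0.51 ± 0.08, 0.00226).

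The other genes with the largest calls of each list in T vs. S changed as follows. The inhibitor Cdkn1c (-0.57 ± 0.15, edgeR adjusted P-value 0.0208), cyclin D2 (Ccnd2; -0.55 ± 0.10, 0.00485), the E2F repressors E2f4 (-0.34 ± 0.09) and E2f6 (-0.27 ± 0.08) and Dut, which clears dUTP (-0.43 ± 0.10), fell. Mnat1 of the CDK-activating kinase (0.38 ± 0.09), the E2F partner Tfdp2 (0.81 ± 0.11), Lin52 of the MuvB core (0.59 ± 0.12), the flap nuclease Fen1 (0.65 ± 0.20), the clamp loader Rfc1 (0.52 ± 0.08), the condensin Smc4 (0.42 ± 0.12) and the chromatin protein Hmgb2 (0.81 ± 0.20) rose.

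Markers of other cell types of the heart also differed between the groups, some in the direction of these genes and some not. All 8 fibroblast markers fell in T vs. S (median -1.54), and 6 of 8 rose in A + T vs. T. Their summed level was between 1761 and 1926 CPM in S, between 910 and 1046 in T and between 1259 and 2019 in A + T. Of 11 endothelial markers, 5 fell in T vs. S (median -0.40) and 1 rose in A + T vs. T. Of 7 smooth muscle and pericyte markers, 5 fell (median -0.74) and 1 rose in these comparisons. Of 10 macrophage markers, 0 fell and 3 rose in T vs. S by edgeR, while 6 rose in A + T vs. T and 9 in A + T vs. S, and their sum was between 658 and 901 CPM in A + T but between 392 and 500 CPM in all other hearts. Neutrophil markers summed to 170 CPM in animal 22 and to at most 17.8 CPM elsewhere. Of 3 monocyte and dendritic markers tested, 1, Ccr2, rose in A + T vs. T and in A + T vs. S (edgeR adjusted P-values 0.0337 and 0.00726). Atrial cardiomyocyte markers summed to between 2999 and 3083 CPM in S, between 861 and 4552 in T and between 793 and 2054 in A + T. The part of these cell types in the levels of Top2a, Kif23, Ect2, Mki67 and the other genes was not tested.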

How the data were processed

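RNA of 9 hearts was analysed, 3 per group, with groups taken from the sample labels. The authors sequenced 75-base paired ends, mapped them to mm10 with STAR, assigned uniquely mapped, strand-matched pairs to refGene genes with featureCounts, and deposited raw counts per gene. They also deposited log2 values, which differed from TMM-scaled log2 CPM by a constant per gene (median SD over libraries 0.00272), as values divided by gene length do. The tool behind them is not given in the sources used here beyond edgeR in the submitters' processing notes.

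A gene was dropped when over 4 of the 9 libraries had it under 0.5 CPM (526 of 13890), which left 13364. This filter keeps a gene that is low in only 1 group but drops a gene that is high in only 1 group. Kif23, Ect2 and Prc1, under 0.5 CPM in every T heart, passed through S and A + T. All groups were fitted together with edgeR 4.0.16 (R 4.3.3; TMM, quasi-likelihood test, two-sided), and P-values were adjusted by Benjamini-Hochberg over all genes tested. The limit of 3 counts covers counting error only, since reads carried no molecular identifiers, whereas SDs and SEs include the spread between animals. The steps were tested on simulated data. Alternatives were limma 3.58.1 (voom, and the deposited values), the likelihood ratio test of edgeR, DESeq2 1.42.0, other scalings and filters, Rn45s left out, other thresholds, only the groups compared, and each animal left out. Statistics of at least 1 comparison, not always T vs. S, are given for the 3 genes of each role with the lowest adjusted P-value in T vs. S. The same holds for genes called in A + T vs. T or against their role's direction, and for the 3 highest levels. Other genes given with statistics were chosen after their values were seen. Of the further cell cycle lists, the 2 highest and 2 lowest called genes in T vs. S are named. The genes and lists were chosen with earlier results of these data known. Promoter sequences are from RefSeq (GRCm38.p6), and gene positions were checked in GENCODE M21; 46 of 51 windows ran into the annotated transcript in the gene's direction. Tyms, Pcna and Ccnb1 have pseudogenes named after them, and 10 genes (Top2a, Mcm7, Cdt1, Rrm1, Foxm1, Ndc80, Kif11, Tpx2, Nusap1 and Anln) overlap a same-strand gene in GENCODE M21. Their counts may be less certain, but whether the refGene annotation used for counting holds these overlaps, or whether any reads were affected, was not tested. Figures were drawn with matplotlib.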

Additional observations from a re-analysis of the deposited data

How the results depend on the processing

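The calls rest on few counts and moved with the settings, whereas the directions of the called genes held. Of 175 refitted log2 fold changes of the called genes, 108 kept their side of the threshold, 67 lost it and 0 reversed. Those genes were picked by their calls in the same libraries, so that reversals were unlikely from the start. Over the 20 alternatives with the same threshold, 7 further gene and comparison pairs were called under at least 1 of them (Mcm2, Cdc6, Rrm2, Foxm1 and Prc1 in T vs. S, Mcm5 in A + T vs. T, Mcm7 in A + T vs. S). Genes called lower in T vs. S numbered 1 with DESeq2, with limma-voom and with library size only, and 0 with at least 10 counts in every library, a filter that by its construction drops genes low in T; genes called higher numbered 0 with library size only. At an adjusted P-value under 0.1 the counts were 6 lower and 2 higher in T vs. S, 6 higher in A + T vs. T and 4 higher in A + T vs. S, and at the study's thresholds 7, 12 and 4. With only the groups compared in the fit, which leaves fewer libraries to estimate the spread, 0 genes were called higher in A + T vs. T and 0 in A + T vs. S. With library size only, 0 were called in A + T vs. S, and with limma on the deposited log2 values 1; the cause was not tested. The median log2 fold change in A + T vs. T was 0.57 with limma-voom, 0.50 with upper-quartile scaling, 0.57 without Rn45s, 0.69 with no filter, 0.49 with the deposited log2 values and 0.28 with at least 10 counts in every library. That last filter gave a median of -0.025 in T vs. S, with 11 of 20 genes below 0 and 9 above, and 0.36 in A + T vs. S. With each animal left out in turn, genes called lower in T vs. S numbered 0 to 3 and higher 0 to 1, those higher in A + T vs. T 0 to 3 and in A + T vs. S 0 to 3, and the medians ran from -0.345 to -0.134, from 0.438 to 0.706 and from 0.203 to 0.340. Counts of genes called lower in A + T vs. T or A + T vs. S stayed at 0 under all alternatives. No paired analysis was possible because the labels number the animals without sharing a number between groups. Depth limits the mitotic genes most, since 27 of the 47 genes had a library under 10 counts.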
